A study of Mus musculus with 38 samples.

Results

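The genes described here are 8 Toll-like receptors (Tlr1, Tlr2, Tlr3, Tlr4, Tlr6, Tlr7, Tlr8 and Tlr9), the co-receptor Cd14 and the adaptor Myd88. They were found by gene name among the probes of an Agilent mouse array that are not controls. All 10 were found among the 29411 gene names, on 11 of the 40628 probes, because Tlr3 has 2 probes. The 38 arrays carried RNA of stromal vascular cells, which remain of fat tissue once adipocytes are removed, from the epididymal fat of C57BL/6J mice, which the labels describe as infiltrating macrophages. Mice weaned at 3 to 4 weeks of age received a low fat control diet (LFC, 10% of calories from fat, 10 arrays), a high fat, high sucrose diet (HFC, 60% of calories from fat, 10 arrays), or that diet with KAL-1, a botanical formulation, at 5, 20 or 75 µg (6 arrays of each dose, named HF5, HF20 and HF75). The control diets were sampled by 1 array at each of D6, D10, D14, W0, W3, W6, W9, W12, W15 and W18 (D for day, W for week), and the doses by 1 array at each week from W3. The paper counts weeks from day 14, so D14 and W0 stand for the same day, though they are counted here as separate time points. Each group began with 30 mice, of which some were killed every 3 weeks. How many mice an array stands for is not given in the sources used here, so p-values measure only the spread between these arrays over time points.

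Toll-like receptors recognise molecules of microbes and of damaged cells. Tlr1, Tlr2, Tlr4 and Tlr6 sit at the cell surface and bind lipoproteins (Tlr2 paired with Tlr1 or Tlr6) or lipopolysaccharide (Tlr4), while Tlr3, Tlr7, Tlr8 and Tlr9 bind nucleic acids in endosomes. Cd14 hands lipopolysaccharide and lipoproteins to Tlr4 and Tlr2, and Myd88 carries the signal of every receptor named here other than Tlr3 to NF-kB and the cytokine genes. In fat tissue these receptors are known from macrophages and other leukocytes and, for Tlr4, also from adipocytes.

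A level below is the log2 processed signal of a probe minus the log2 75th percentile of its array, so that 0 is the 75th percentile and a difference of 1 is 2-fold. Levels of different probes depend on the probe and were not ranked against each other. The probes are 60 bases long, and their first 30 bases are printed here, in lower case, for the receptors whose values carry the results and for both Tlr3 probes, whose starts can be seen to differ:
Tlr1: caagcatggacttttttgggcaaacctaag
Tlr2: ccttggatgaaggccagcaggaagtgtttt
Tlr4: tgtgatagggctttaaatagttgagctaat
Tlr7: acctaggacatgccttggtacctgaagttt
Tlr9: ctggttcccgagttgctctgcctgccttgc
Tlr3, first probe: gggcagttaaaaacatcctctattaataga
Tlr3, second probe: taatgctcatttttgagacgtttatagaat

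Promoter sequence from RefSeq (GRCm38.p6) was at hand for 7 of the 10 genes. Because the genes most like Tlr2 over the arrays included Tnf and Ccl2, known targets of NF-kB, the 250 bases before its listed start (chr3:83841609-83841858, minus strand) are printed with matches to the NF-kB consensus in capitals, both strands searched:
Tlr2 promoter: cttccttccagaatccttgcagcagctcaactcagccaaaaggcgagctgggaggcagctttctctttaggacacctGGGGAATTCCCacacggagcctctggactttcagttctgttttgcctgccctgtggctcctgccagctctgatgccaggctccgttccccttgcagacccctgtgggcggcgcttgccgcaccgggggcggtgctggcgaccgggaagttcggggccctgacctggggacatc
The capitals hold overlapping matches that begin 173 and 172 bases before the start. Of all 32851 promoter windows of this length, 3.9% hold a match, and among the members a match was also found for Tlr3, 211 bases before its start. The windows of Tnf and of Clec4e, another gene most like Tlr2, held no match. The core of the site of PU.1, a transcription factor of myeloid and B cells (GAGGAA, both strands), was found in 23.3% of all windows, among the members in those of Tlr1 (1 of its 2 starts), Tlr8 and Tlr9, and also in those of Tnf and Clec4e. The motifs were chosen after the levels had been seen, and a match describes letters, not a site in use.

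All members other than Tlr8 were detected on nearly all arrays. Tlr2, Tlr9, Cd14 and Myd88 were well above background on 38 of 38 arrays, Tlr1, Tlr4 and Tlr6 on 37, and Tlr3 and Tlr7 on 36. Tlr8 was well above background on only 10 of 38 arrays (3 of 10 LFC, 4 of 10 HFC, 0 of 6 HF5, 2 of 6 HF20 and 1 of 6 HF75). No member was saturated on any array. The filter for testing left 9 of the 10 genes, and Tlr8 is described by its levels alone.

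The arrays differed in brightness and in cell makeup in ways that touch these genes. The 75th percentile of the signal was as low as 25.8 and as high as 1983 in scanner units, with HF5 W12 and HF75 W3 (88.4) the dimmest. Of 11 general macrophage markers, 10 were well above background on every array, but so were 6 of 6 fibroblast, 6 of 6 endothelial and 7 of 9 adipocyte markers, so the RNA was not of macrophages alone. The mean level of the adipocyte markers was 4.65 to 4.78 on both control arrays of W9, on LFC W12 and on HF75 W12, called adipocyte-rich below, against at most 3.74 on the other 34 arrays. The mean level of the T cell markers was -1.40 to 0.71 on the 5 arrays of W6 against at most -0.04 elsewhere. On HFC D10 the spots of Tlr2 and Cd14 were marked as outliers by the scanner software and were left out, so these 2 genes have 9 HFC values.

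**Figure D1:**
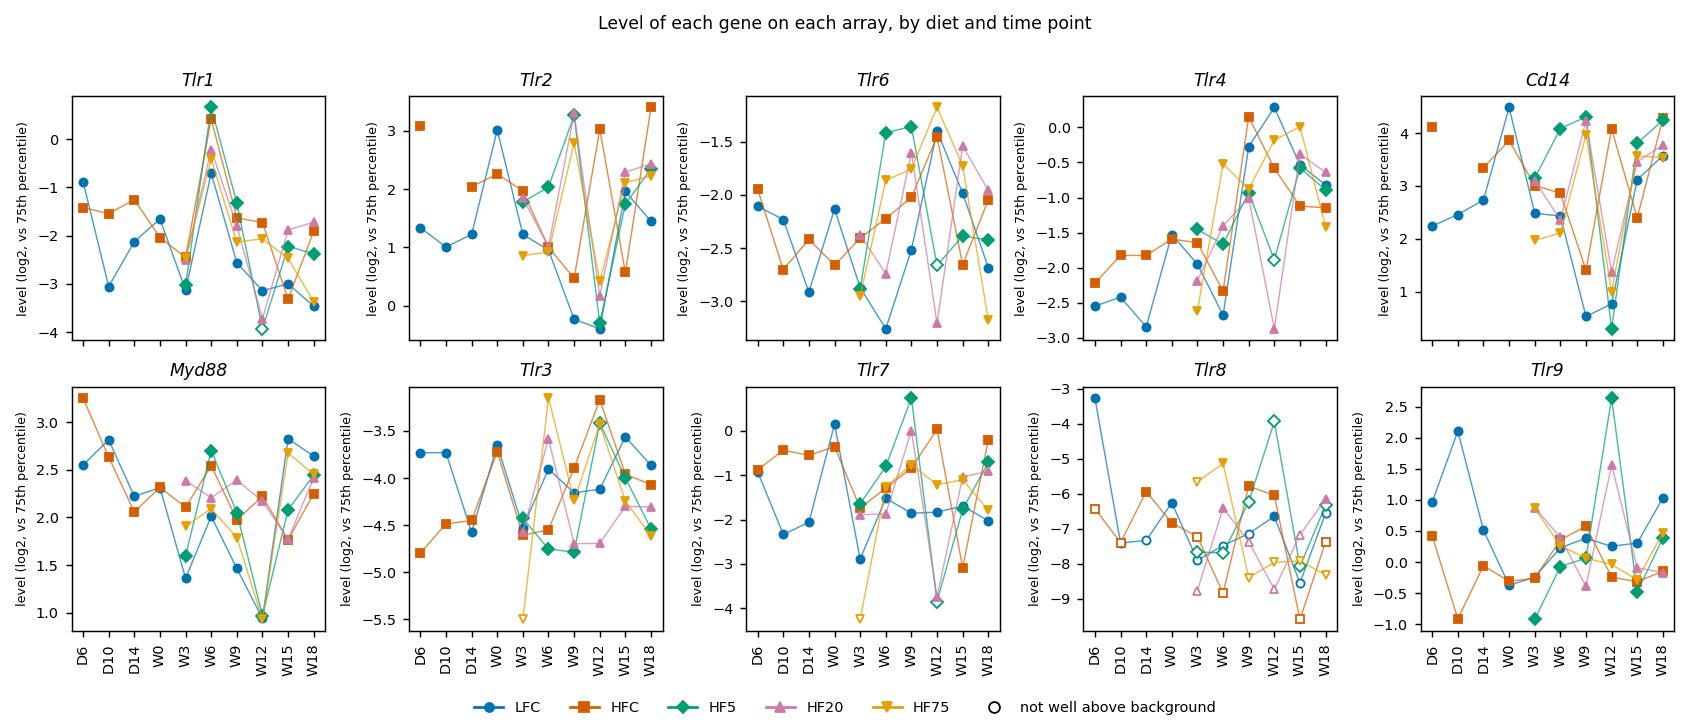
Level (log2 signal minus the array's 75th percentile, y axis) of each of the 10 genes on each array by time point (x axis) and diet (colour and marker), with open markers where the probe was not well above background. Tlr1 peaks on all 5 arrays of W6, Tlr4 is higher from W9 on LFC and HFC, Tlr2 and Cd14 move together, and most Tlr8 markers are open.

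The comparison of HFC with LFC asks how the receptors differed between the 2 control diets when each array is set against the array of its own time point. Tlr1, Tlr2, Tlr7 and Cd14 had mean levels 0.68 to 0.81 log2 higher on HFC, and Tlr9 was 0.61 lower. None of the 9 members passed the adjusted threshold of 0.05 (limma, Benjamini-Hochberg over 31203 probes, smallest adjusted p = 0.547), and neither did any other probe, so that the share called is 0%. At an unadjusted p below 0.05, limma gave 2824 probes, or 9.05% of those tested, and 2 of the 9 members, Tlr1 and Tlr7. The median difference was 0.20 over the 9 members and 0.01 over all probes. Arrays of the same diet and day could lie further apart than the diets. At D14 and W0, both day 14, LFC levels were -2.06 and 0.15 for Tlr7, 1.22 and 3.01 for Tlr2 and 2.73 and 4.48 for Cd14. On HFC they lay closer, at -0.55 and -0.36, 2.04 and 2.26, and 3.34 and 3.86. In bulk RNA such as this, fewer cells of a type and less RNA per cell cannot be told apart.

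Among the surface receptors, Tlr1, which forms a lipoprotein receptor with Tlr2, had levels of -3.46 to -0.71 on LFC (median -2.78, n = 10) and of -3.32 to 0.42 on HFC (median -1.68, n = 10). The ranges overlapped, yet HFC was the higher array at 7 of 10 pairs. The mean difference was 0.68 ± 0.25 (SE, 10 time points), with an unadjusted p of 0.0186 and an adjusted p of 0.547 by limma, and p = 0.03125 by an exact two-sided sign-flip test. Such a test was run for each of the 10 genes, and its p is given unadjusted. HFC was the lower array at D6, W0 and W15. With normexp background correction the difference was 0.17.

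Tlr2, the common partner of the lipoprotein receptors, had levels of -0.40 to 3.01 on LFC (median 1.22, n = 10) and 0.47 to 3.40 on HFC (median 2.04, n = 9). HFC was higher at 7 of 9 time points, by 3.43 at W12 and 1.96 at W18, and lower by 1.39 at W15. The mean difference was 0.81 ± 0.44 (SE, limma, unadjusted p = 0.0928, adjusted p = 0.556, exact sign-flip p = 0.125, where 9 time points allow no less than 0.00391). Without W12 it was 0.48.

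Cd14 followed the same time points. Its levels were 0.53 to 4.48 on LFC (median 2.47, n = 10) and 1.41 to 4.28 on HFC (median 3.34, n = 9). HFC was higher at 7 of 9 time points, most at W12 (3.31) and D6 (1.87), and lower at W0 and W15. The mean difference was 0.78 ± 0.38 (SE, limma, unadjusted p = 0.0643, adjusted p = 0.548, exact sign-flip p = 0.0898). Without W12 it was 0.46.

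Tlr4 and Tlr6, the lipopolysaccharide receptor and the second partner of Tlr2, had smaller differences. Tlr4 differed by 0.12 ± 0.19 (SE, limma, unadjusted p = 0.554), with levels of -2.84 to 0.28 on LFC (median -1.74) and -2.34 to 0.15 on HFC (median -1.62). Tlr6 differed by 0.16 ± 0.19 (SE, limma, unadjusted p = 0.431), with levels of -3.26 to -1.40 on LFC (median -2.37) and -2.70 to -1.45 on HFC (median -2.31). The 95% intervals of these differences, -0.30 to 0.54 for Tlr4 and -0.26 to 0.57 for Tlr6, leave room for either direction, and with normexp background correction the differences were -0.19 and -0.27. Myd88 differed by 0.20 ± 0.22 (SE, limma, unadjusted p = 0.384), with HFC higher at 6 of 10 time points, and its levels were 0.94 to 2.82 on LFC and 1.76 to 3.25 on HFC.

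Among the endosomal receptors, Tlr7, which binds single-stranded RNA, had levels of -2.89 to 0.15 on LFC (median -1.85, n = 10) and -3.08 to 0.03 on HFC (median -0.70, n = 10). HFC was higher at 8 of 10 time points, all but W0 and W15, and the diets were at least 2-fold apart at 7, W15 included. The mean difference was 0.76 ± 0.33 (SE, limma, unadjusted p = 0.0412, adjusted p = 0.547, exact sign-flip p = 0.0684). With normexp background correction it was 0.30.

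Tlr9, which binds unmethylated CpG DNA, had levels of -0.37 to 2.10 on LFC (median 0.34, n = 10) and -0.91 to 0.58 on HFC (median -0.20, n = 10). The difference was -0.61 ± 0.29 (SE, limma, unadjusted p = 0.0567, adjusted p = 0.547, exact sign-flip p = 0.0293), and HFC was lower at 7 of 10 time points. D10 alone gave a difference of -3.02, and without D10 the mean was -0.34. LFC D10 was a dim array, with a 75th percentile signal of 262 against 936 on HFC D10. It also stood apart in marker scores, with an endothelial score of 4.33, the highest of the 38 arrays, against 0.64 on HFC D10, a mesothelial score of -5.82 against 1.43 and an epididymis score of -6.61 against 4.24. LFC D6 and LFC W18 were dimmer (229 and 230) and had Tlr9 levels of 0.96 and 1.03. The part of these differences in the Tlr9 value was not tested. With array brightness in the fit the difference was -0.11 (limma, unadjusted p = 0.73). That fit does not settle the part of brightness, since LFC D10 stood apart in both brightness and marker scores.

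Tlr3, the receptor of double-stranded RNA, differed by -0.19 ± 0.19 (SE, limma, unadjusted p = 0.348) on its first probe and by -0.01 ± 0.28 (unadjusted p = 0.965) on its second. On the first probe it lay between -4.58 and -3.56 on LFC (median -3.89) and between -4.80 and -3.17 on HFC (median -4.26). Tlr8 lay between -8.56 and -3.27 on LFC and between -9.60 and -5.79 on HFC, and most of these values were not well above background.

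**Figure D2:**
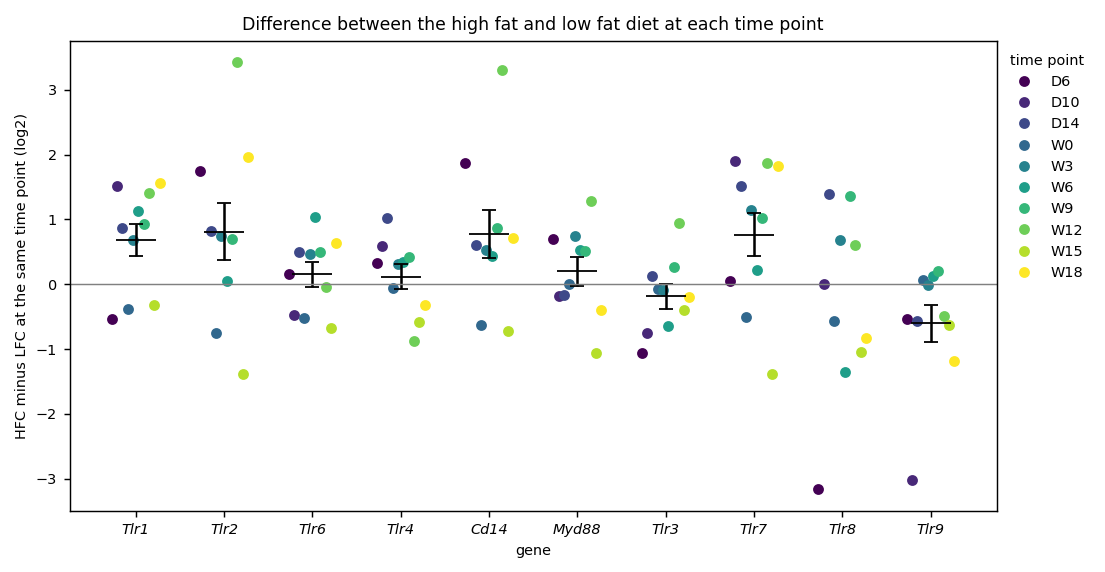
HFC minus LFC (log2, y axis) at each time point (points, coloured by time point) for each gene (x axis), with the mean of the limma fit and its SE in black for the 9 genes tested. Tlr1, Tlr2, Cd14 and Tlr7 lie mostly above 0 with W15 below it, and the lowest Tlr9 point is D10 at -3.02.

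Marker scores also differed in their means between the diets. The general macrophage score was higher on HFC at 8 of 10 time points (mean difference 0.52, SD 0.82, n = 10, exact sign-flip p = 0.0742), and the adipocyte score was lower at 7 of 10 (mean -0.79, SD 1.25, exact p = 0.0645). The mesothelial score was higher at 8 of 10 (mean 1.83, SD 3.99, exact p = 0.188), the epididymis score at 6 of 10 (mean 2.38, SD 5.19, exact p = 0.182), and the endothelial score was lower at 7 of 10 (mean -0.63, SD 1.25, exact p = 0.119). The means of the neutrophil, dendritic cell, B cell, T cell and fibroblast scores were 0.12 to 0.39 higher on HFC, though the neutrophil score was higher at only 4 of 10 time points. The part of cell makeup in the members' differences was not tested. With the macrophage score in the fit, the differences were 0.30 for Tlr1, 0.03 for Tlr2, 0.28 for Cd14 and 0.16 for Tlr7, with a smallest unadjusted p of 0.220 (limma), for Tlr1. That fit holds no other marker list, and Tlr7 itself followed the score over the arrays (r = 0.89). It therefore does not settle the part of cell makeup. At the 5 time points where both diets shared a slide, the differences ran from -0.54 to 1.56 for Tlr1, from -1.39 to 1.90 for Tlr7 and from -3.02 to -0.50 for Tlr9. For Tlr2 and Cd14, which have no D10 difference, they ran from -1.39 to 3.43 and from -0.72 to 3.31 at the rest of these time points. The diets of a time point always shared a scan day.

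The genes that act beside and behind the receptors were counted by lists. Of 55 such genes 54 were tested, none passed the adjusted threshold, and at an unadjusted p below 0.05, 4 were higher and 1 lower on HFC. These are 9.26% of the 54, near the 9.05% of all probes, so their number does not set these genes apart. They were Ikbke, a kinase of the interferon branch (0.96 ± 0.26 SE, limma, adjusted p = 0.547), Cd180, a Tlr4-like surface protein (0.68 ± 0.22), Irf5, a transcription factor downstream of Myd88 (1.01 ± 0.38), Il10, an anti-inflammatory cytokine (1.57 ± 0.67), and, lower, Ikbkg, the regulatory subunit of the IKK complex (-0.59 ± 0.21). Irf5 and Il10 are named here after their values were seen. All 10 cytokine genes that Toll-like receptors induce had positive differences, with a median of 1.43, and 1 of them, Il10, reached an unadjusted p below 0.05. Being of the same arrays, their signs are not independent of each other. The other lists had medians of -0.11 (13 kinases and ubiquitin ligases) to 0.53 (Tlr5, Tlr11, Tlr12 and Tlr13), against 0.01 over all probes.

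The change of the HFC minus LFC difference with time was asked next. No probe passed the adjusted threshold (0% of 31203, smallest adjusted p = 0.981), and 1361 probes, or 4.36%, had an unadjusted p below 0.05, among them 1 of the 9 members. This was Tlr4, whose difference moved by -0.06 ± 0.02 log2 per week (SE, limma, unadjusted p = 0.0333, adjusted p = 0.981). It was positive at D6, D10, D14, W3, W6 and W9 (0.30 to 1.02), near 0 at W0 (-0.06) and negative at W12, W15 and W18 (-0.87 to -0.33). Of the 54 pathway genes, Tlr13, a receptor of bacterial ribosomal RNA, and Nfkbia, the inhibitor of NF-kB, had an unadjusted p below 0.05, both with a change of 0.13 per week (SE 0.05, limma, adjusted p = 0.981). These 2 genes are 3.70% of the 54, below the 4.36% of all probes.

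Levels of Tlr4 over the course differed more than its levels between diets. On the 8 LFC and HFC arrays of D6 to W0 Tlr4 lay between -2.84 and -1.53 (median -2.02). On the 8 of W9 to W18 it lay between -1.15 and 0.28 (median -0.56). How many of all probes had early and late ranges apart was not counted. The W3 and W6 arrays of these diets, from -2.68 to -1.65, lay with the early ones. Of the dose arrays from W9, HF5 W12 (-1.89, not well above background) lay within the early range and HF20 W12 (-2.87) below it. The common slope of LFC and HFC was 0.09 ± 0.02 log2 per week (SE, 20 arrays, limma, unadjusted p = 0.000974, adjusted p = 0.114). It did not pass the adjusted threshold, which 154 of 31203 probes did (0.494%, 14 up and 140 down), and 11.3% of probes had an unadjusted p below 0.05, among the members only Tlr4.

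The early and late arrays were split so after the values had been seen. The slope was 0.07 without W9 and W12, which hold 3 of the adipocyte-rich arrays. With array brightness in the fit it was 0.09 with an adjusted p of 0.0471, the lowest of all alternatives, whose adjusted p ran up to 0.354 (limma). Age, time on diet and scan day ran together over the course and cannot be told apart. Of the other 8 members tested, Tlr1 had the next smallest p, with a slope of -0.06 ± 0.03 (SE, limma, unadjusted p = 0.0597, adjusted p = 0.465). Among the 54 pathway genes, Irf7, a transcription factor of the interferon response downstream of Tlr7 and Tlr9, fell by 0.15 log2 per week (SE 0.03, limma, adjusted p = 0.0194), the only one past the adjusted threshold. All 10 induced cytokines had negative slopes, with a median of -0.08 against 0.00 over all probes, and none of them reached an unadjusted p below 0.05. Here too their signs are not independent of each other.

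Tlr1 had its 5 highest levels on the 5 arrays of W6. Its levels there were -0.71 on LFC, 0.42 on HFC, 0.65 on HF5, -0.22 on HF20 and -0.42 on HF75, and all 33 other arrays lay between -3.93 and -0.88. The highest of these others was LFC D6, which also had the highest T cell score outside W6. No other member had its 5 highest levels at W6. How many of all probes had theirs there was not counted, so this does not set Tlr1 apart from other genes. On the W6 arrays the B cell score was -1.07 to 0.49 against -5.84 to -1.03 elsewhere, and the dendritic cell score -1.34 to -0.72 against -3.01 to -0.60. Cd3e was well above background on 33 and Cd4 on 29 of the 38 arrays. The neutrophil score at W6 was -1.06 to 2.30 against -3.12 to 1.83 elsewhere. The mesothelial score was -5.91 to 0.04 against -5.82 to 2.83, and the epididymis score -8.13 to -2.71 against -8.12 to 4.39. The part of this makeup in the Tlr1 level was not tested.

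On the 4 adipocyte-rich arrays Tlr2 (-0.40 to 0.47) and Cd14 (0.53 to 1.41) were low and Tlr4 was high (-0.28 to 0.28). Of the other arrays, HF75 W15 reached this Tlr4 range (0.01). On the other 34 arrays the medians were 1.96 for Tlr2, 3.34 for Cd14 and -1.49 for Tlr4. Tlr7 on the 4 arrays, at -1.86 to -0.84, lay within the range of the rest. HF5 W12 and HF20 W12 also had low Tlr2 and Cd14 (Tlr2 -0.31 and 0.17, Cd14 0.30 and 1.37) with Tlr4 low as well (-1.89 and -2.87). On HF5 W12, the dimmest array, Tlr4 was not well above background. Adipocyte scores were 3.74 on HF5 W12 and -0.96 on HF20 W12.

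**Figure D3:**
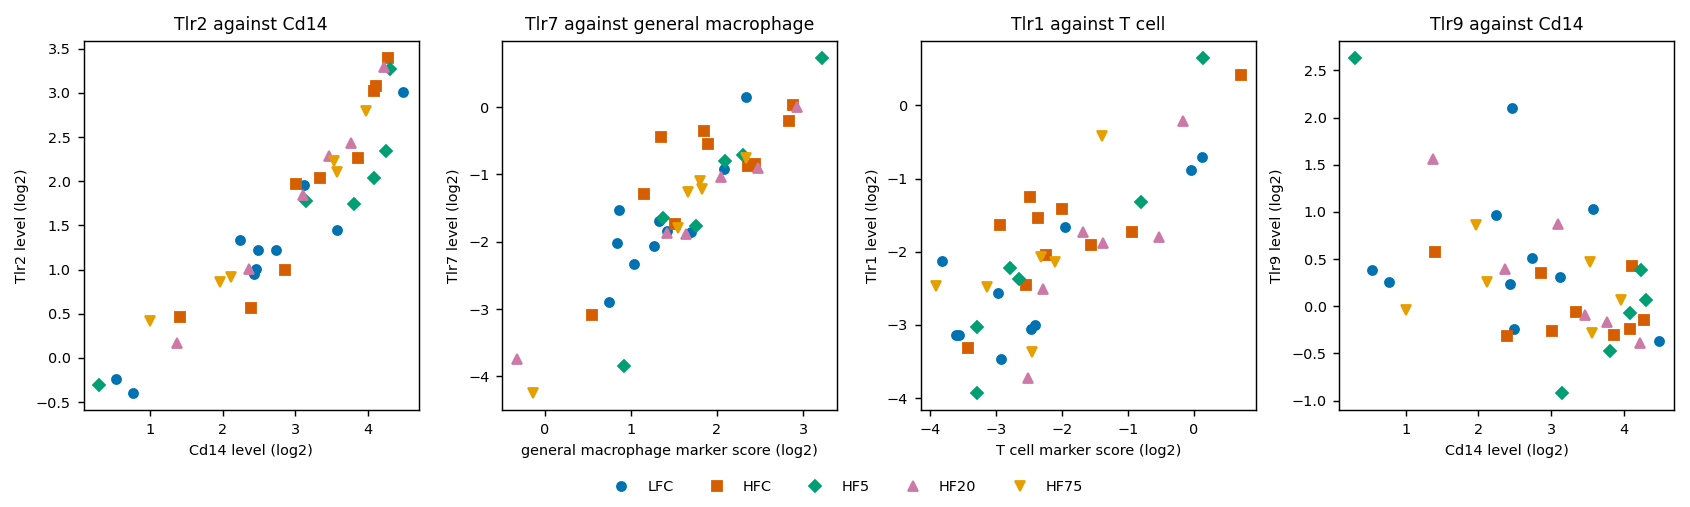
Tlr2 against Cd14, Tlr7 against the mean level of 11 macrophage markers, Tlr1 against that of 6 T cell markers, and Tlr9 against Cd14 (all log2), 1 point per array, coloured by diet. The first 3 pairs rise together (r = 0.94, 0.89 and 0.80). The last pair falls (r = -0.51), mostly over the doses (-0.68, against -0.10 within LFC and -0.40 within HFC).

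The members fell into different patterns when their levels were correlated over the arrays. These correlations are descriptions: the arrays of a time point share age and mostly a scan day, and the choice of pairs followed the values. Tlr2 and Cd14 were the closest pair (r = 0.94, Spearman rho = 0.94, n = 37), at 0.95 within LFC, 0.94 within HFC and 0.95 over the doses, and at 0.93 without the 2 arrays farthest from the median Cd14 level. Tlr7 followed the general macrophage score (r = 0.89, rho = 0.85, n = 38; 0.84 without the 2 farthest arrays), with 0.84 within LFC, 0.78 within HFC and 0.95 over the doses. Tlr2 and Tlr6 followed that score less closely (both r = 0.69), Cd14 at 0.56, Tlr4 at 0.46 and Tlr1 at 0.40. These relations differed in size between the diets. Within LFC, within HFC and over the doses, r was 0.28, 0.68 and 0.80 for Tlr2, 0.51, 0.77 and 0.73 for Tlr6, and 0.08, 0.45 and 0.71 for Cd14.

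Over all arrays Tlr1 was closer to the dendritic cell (r = 0.82, rho = 0.81), T cell (r = 0.80, rho = 0.75) and B cell scores (r = 0.71, rho = 0.58, n = 38) than to the macrophage score. Without the 2 farthest arrays these were 0.79, 0.72 and 0.58, and after removal of each time point's mean they were 0.65, 0.61 and 0.49, against 0.74 for the macrophage score. Within time points Tlr1 was thus closest to the macrophage score of the lists. Tlr4 was closest to Tlr6 among the members (r = 0.60), and had r = 0.01 with Cd14, its co-receptor, and 0.05 with Tlr2. These low values join opposite signs. Within LFC, within HFC and over the doses, r was -0.35, -0.43 and 0.36 with Cd14, and -0.35, -0.23 and 0.40 with Tlr2. Myd88 was closest to Cd14 (r = 0.63). The highest r of Tlr3 with another member was 0.36, with Tlr4.

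Tlr9 ran opposite to Tlr7 (r = -0.56), Cd14 (-0.51) and Tlr2 (-0.50), most strongly over the doses (-0.70, -0.68 and -0.65). Within LFC these were -0.30, -0.10 and -0.20, and within HFC -0.04, -0.40 and -0.28. Tlr9 also ran opposite to array brightness (r = -0.68, rho = -0.43; -0.50 without the 2 farthest arrays), at -0.78 within LFC, 0.07 within HFC and -0.71 over the doses. Its highest level, 2.64, was on HF5 W12, the dimmest array, followed by 2.10 on LFC D10. The next, 1.56, was on HF20 W12, with a 75th percentile signal of 936, well within the range of the other arrays.

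**Figure D4:**
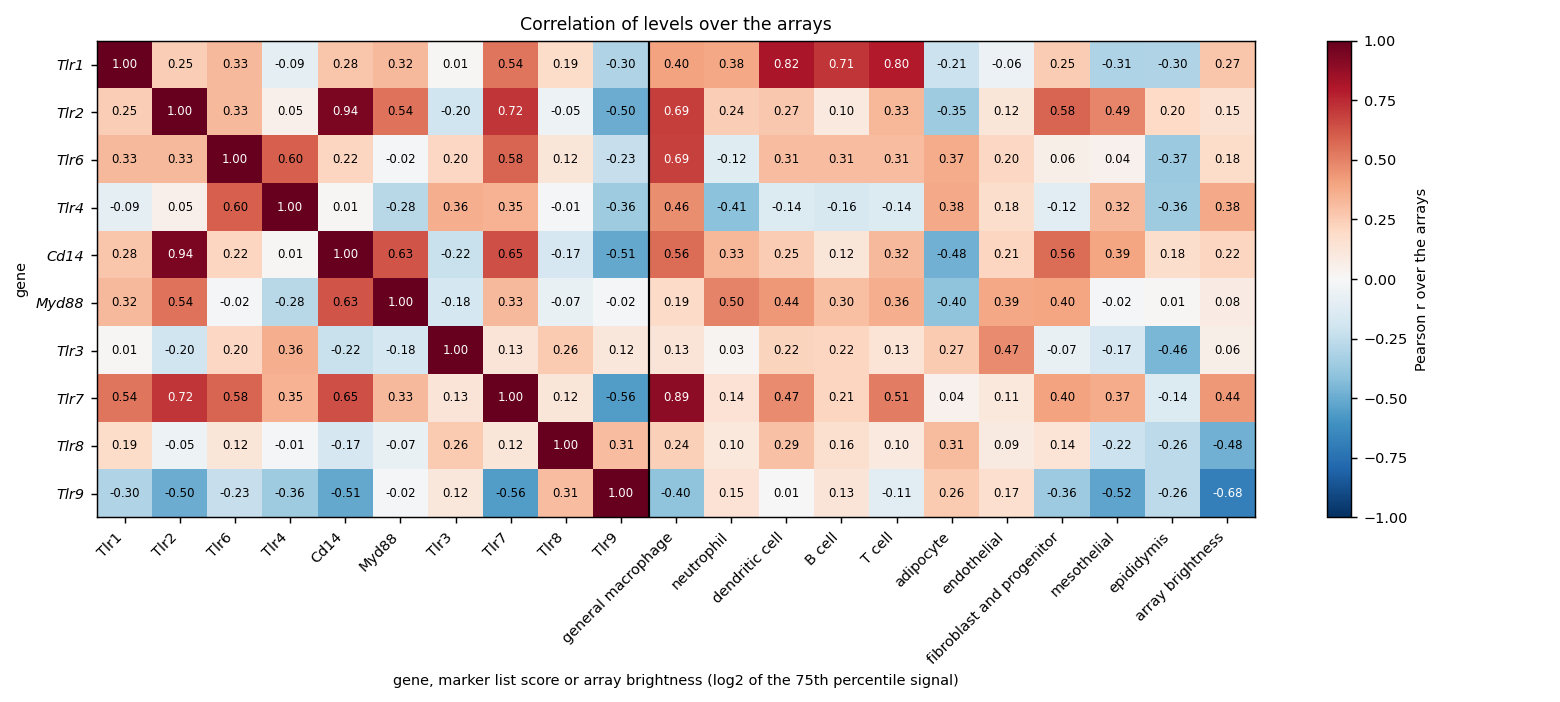
Pearson r of the level of each gene (rows) with the other genes, with the mean level of each marker list and with array brightness (columns), over 37 or 38 arrays. The strongest off-diagonal cells are Tlr2 with Cd14 (0.94), Tlr7 with the macrophage markers (0.89) and Tlr1 with the dendritic cell (0.82) and T cell (0.80) markers, and Tlr9 with brightness (-0.68) is the most negative.

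The genes most like each member were looked for among 27215 probes with a gene name that were well above background on at least 0.5 of the 38 arrays, by r over 37 or 38 arrays. For Tlr2 they were Clec4e (0.93), a receptor of mycobacterial glycolipid, Ccl2 (0.92), the monocyte chemokine, and Tnf (0.91). For Cd14 they were Tnf and Clec4e (both 0.92) and Ccrl2 (0.91), a chemokine-binding receptor. Those named for Tlr7 were C1qa (0.91), a complement component, and Csf1r (0.91), the receptor of the macrophage growth factor, and both belong to the macrophage list.

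Tlr1 was most like Coro1a, an actin-binding protein of leukocytes, Rac2, a GTPase of blood cells, and Pyhin1, now named Ifi209 (all 0.90). Tlr6 was most like the leukocyte receptors Lilrb3, now Pirb (0.79), Msr1 (0.78), a scavenger receptor of macrophages, and Pira11 (0.76). Tlr4 was most like Nat13, now Naa50 (0.86), an acetyltransferase subunit, E030003E18Rik (0.84) and Adam9 (0.82), a membrane protease. None of these 3 is in the macrophage list. Myd88 was most like Tagln2 (0.87), Csnk1d (0.86) and Gm5450 (0.82), Tlr9 like Trim38 (0.89), Lce1b (0.85) and Intu (0.85), and Tlr3 like Kif1b (0.73), Otud4 (0.71) and Asah2 (0.70). Those named for Tlr8 were Etv5 (0.71) and Gm885, now Milr1 (0.59), on levels that were mostly near background.

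The comparison of the doses with HFC asks how the receptors differed with the formulation in mice on the high fat diet, over W3 to W18. None of the 9 members had an adjusted or an unadjusted p below 0.05 in any of the 4 comparisons (limma). Over all 33780 probes the adjusted share was 0% each time. The shares at an unadjusted p below 0.05 were 1.73% (586 probes) for the mean of the doses, 4.72% (1594) for HF5, 1.54% (519) for HF20 and 1.96% (661) for HF75. The median difference of the members was -0.08 for the mean of the doses, against 0.01 over all probes.

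The intervals were wide. For the mean of the doses minus HFC, the difference was -0.0039 ± 0.46 for Tlr2, 0.01 ± 0.47 for Cd14, -0.36 ± 0.49 for Tlr7, -0.29 ± 0.30 for Tlr1, 0.29 ± 0.33 for Tlr9, -0.25 ± 0.24 for Tlr3 and -0.09 ± 0.22 for Myd88 (SE, 6 weeks), and -0.08 ± 0.35 for Tlr4 and -0.04 ± 0.30 for Tlr6. The smallest unadjusted p among them was 0.311 (limma), for Tlr3, and the 95% interval ran from -0.95 to 0.94 for Tlr2 and from -0.97 to 0.99 for Cd14. These Tlr3 values are of its first probe. The second differed by -0.40 ± 0.36 (SE, limma, unadjusted p = 0.272). On HF5 alone the second probe differed by -0.82 ± 0.44 (SE, limma, unadjusted p = 0.0742), against -0.28 on the first. By single doses, Tlr2 differed by 0.07 on HF5, 0.10 on HF20 and -0.18 on HF75 (SE 0.56 each), and Cd14 by 0.31, 0.04 and -0.31 (SE 0.58 each). For 4 arrays of HF5 and HF20, at W15 and W18, the diet label names the other of these doses than the title. With the doses of the diet label, Tlr2 differed by 0.18 on HF5 and -0.0042 on HF20 and Cd14 by 0.17 and 0.18, Tlr6 on HF5 turned from -0.05 to 0.16, and still no member had an unadjusted p below 0.05 (limma). The 3 dose comparisons share the HFC arrays and are not independent of each other.

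Behind these means lay large differences of opposite sign. Tlr2 on the doses differed from HFC by 2.32 to 2.83 at W9 and by -3.33 to -2.61 at W12, and Cd14 by 2.56 to 2.90 at W9 and by -3.78 to -2.70 at W12. The HFC array of W9 was adipocyte-rich (score 4.69, against 1.54 to 2.34 on the doses of that week, which were scanned on another day), and the HFC array of W12 had the highest macrophage score of the HFC arrays (2.88). HF20 and HF75 at W3 and W18, and HF75 at W6, were also scanned on another day than the HFC array of their week. Tlr7 differed from HFC by -3.88 on HF5 and by -3.77 on HF20 at W12, with macrophage scores of 0.92 and -0.32 there. On HF5 W12, the dimmest array, Tlr7 was not well above background, so its difference there is not a measured size. At W15, where HFC was low, all 3 doses were higher than HFC in Tlr1 (0.85 to 1.44), Tlr2 (1.17 to 1.72), Cd14 (1.06 to 1.41) and Tlr7 (1.31 to 2.05).

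Levels on the doses overlapped with those on both control diets for every member. Tlr1 lay between -3.93 and 0.65 over the 18 dose arrays (median -2.18), Tlr2 between -0.31 and 3.30 (median 1.94), Cd14 between 0.30 and 4.31 (median 3.50) and Tlr7 between -4.25 and 0.74 (median -1.24). The lowest levels of Tlr1, Tlr7 and Tlr3 on the doses were not well above background. Tlr4 lay between -2.87 and 0.01 (median -0.97), Tlr6 between -3.21 and -1.18 (median -2.17), Tlr3 between -5.50 and -3.15 (median -4.37), Tlr9 between -0.92 and 2.64 (median 0.06) and Myd88 between 0.93 and 2.70 (median 2.13). Of the 54 pathway genes tested, 0 had an unadjusted p below 0.05 in any of the 4 dose comparisons (limma). The 10 induced cytokines all had positive differences for the mean of the doses, with a median of 0.47 against 0.01 over all probes. By single doses 8 were positive on HF5, 10 on HF20 and 8 on HF75 (medians 0.75, 0.72 and 0.22). These genes were measured on the same arrays, so their signs are not independent of each other.

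**Figure D5:**
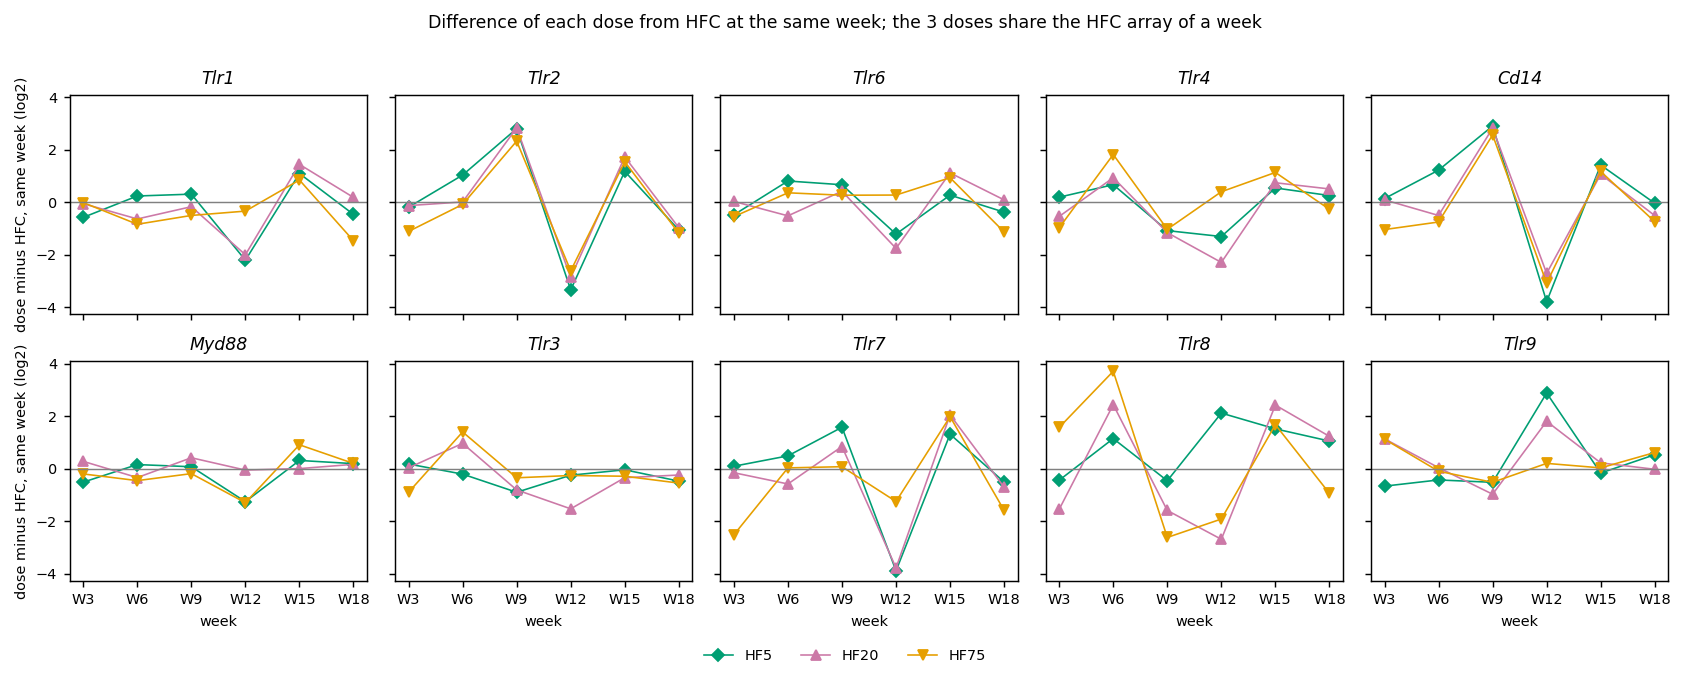
Difference of each dose from HFC at the same week (log2, y axis) by week (x axis) for each gene, coloured by dose. In Tlr2 and Cd14 the 3 doses lie together above HFC at W9, below it at W12 and above it at W15.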

How the data were processed

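Total RNA of epididymal stromal vascular cells was hybridised by the authors to 38 Agilent mouse arrays with 1 colour. The deposited intensity values (processed signal) were background-subtracted by Feature Extraction, version 10.5.1.1 per the file headers and 9.1 in the submitters' processing notes, and not scaled between arrays. Here each array's log2 75th percentile was subtracted, control spots and spots marked as outliers were left out, and spots of a probe were averaged. Tlr3 is represented by its probe of higher mean level. The authors' table of fold changes was not used here.

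A probe was tested where at least 0.5 of the arrays of any 1 diet in the fit measured it well above background, with limma 3.58.1 (R 4.3.3) after tests on simulated data, with Benjamini-Hochberg adjustment over all such probes and a threshold of 0.05. HFC and LFC were compared over 20 arrays with time point as a block, since both diets of a time point share the age, the sampling time and the scan day. The slope on elapsed day (14 days added to weeks, given per week) had diet as a block, and doses were compared over the 30 arrays of W3 to W18 with week as a block. Exact sign-flip tests were two-sided over time points, with D14 and W0 counted apart although both are day 14. A marker score is the mean level of a fixed list. The series text speaks of 3 biological replicates, and 1 array per diet and time point was analysed here.

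All 10 members are named, with the 3 genes most like each, apart from some for Tlr7 and Tlr8 that are not reported here, and up to 3 pathway genes of smallest p per comparison. The members and lists were chosen with earlier results of these data known. For HF5 and HF20, the diet label of the W15 and W18 arrays (4 arrays) names the other dose than the title and source, which were followed. The number of arrays limits the precision.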

Additional observations from a re-analysis of the deposited data

Results flagged for a closer look

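Of 50 groups of levels (10 genes in 5 diets), 5 had an array set far apart from the others of its diet, where chance gives about 1 in 20, or 2.5. Tlr3 was -3.585 on HF20 W6 against -4.30 on the nearest HF20 array. Tlr7 was -4.25 on HF75 W3 against -1.79 on the nearest HF75 array, and it was not well above background there. Tlr8 was -3.27 on LFC D6, where it was well above background, against -6.26 on the nearest LFC array. Tlr9 was 2.64 on HF5 W12 against 0.39, and Cd14 was 0.30 on the same array against 3.15. HF5 W12 and HF75 W3 were the dimmest arrays (75th percentile signals of 25.8 and 88.4), and the part of brightness in these levels was not tested.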

How the results depend on the processing

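Over 135 alternative fits, 723 of 805 counts and member values kept their direction and their side of the threshold, 44 of 535 member values took the other sign, none of them past the threshold, and Tlr4 passed for the slope (0.09 per week) with brightness as a covariate. For HFC minus LFC, Tlr4 became -0.19 and Tlr6 -0.27 with normexp background, Tlr3 0.16 and Tlr4 -0.20 with the brightness covariate, and Tlr6 -0.0518 with the macrophage score. The count of members with an unadjusted p below 0.05 (limma) was 0 with the brightness or macrophage covariate, and 1 without W9 and W12, without D6 and D10 or by the methods' t-test. It was 1 to 4 when each time point was left out, with 4 without W0 or W15 and 1 without D10, D14, W3, W12 or W18. That t-test gave 1105 probes unadjusted, 305 of them at least 2-fold apart, and 0 after Benjamini-Hochberg.

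With no replicate block (time point left out of the model) the count was 1 for HFC minus LFC and 0 for its change with day. The pairing by time point comes from the labels. The latter count was also 0 with normexp, the brightness covariate, slide as a random block, without W9 and W12 and without D6 and D10, and 0 to 1 when each time point was left out (0 without D10, D14, W12 or W15). The slide fit had an estimated within-slide correlation of -0.952 for this change and -0.951 for HFC minus LFC. These are near the lowest possible value, so that fit is a weak check there. With the macrophage covariate 1 probe passed the adjusted threshold for that change. For the slope, 154 probes became 1 with normexp, 75 above background on every array, 91 with slide as a random block, 98 without W9 and W12, 8 without D6 and D10 and 37 to 219 when each time point was left out. Members in the slope were 1 to 2 (2 without D10, W3 or W6). The slope turned to 3.26e-05 (slide), 0.0203 (without D6 and D10) for Tlr9, to 0.0079 without W9 and W12 for Cd14, and to 0.0055 without D6 and D10 for Myd88. When each time point was left out it ran from -0.0138 to 0.0075 for Tlr9 and from -0.0766 to 0.0049 for Cd14.

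For the mean of the doses, normexp gave 0.29 for Tlr1, 0.14 for Tlr2, 0.19 for Tlr3, 0.15 for Tlr4, 0.24 for Tlr6, 0.0564 for Tlr7 and -0.0359 for Cd14, and quantile scaling -0.0324 for Cd14. The brightness covariate gave 0.0468 for Tlr2, 0.0851 for Tlr4 and 0.0339 for Tlr6, the macrophage score 0.16, 0.0391 and 0.0770, scan day as a block 0.12 for Tlr4 and -0.47 for Cd14, and leaving out HF5 W12 and HF75 W12 0.14 for Tlr2 and 0.0098 for Myd88. When each week was left out, values ran from -0.53 to 0.58 for Tlr2, -0.54 to 0.65 for Cd14, -0.32 to 0.12 for Tlr4, -0.21 to 0.13 for Tlr6, -0.79 to 0.16 for Tlr7 and -0.19 to 0.0694 for Myd88. Without W12, 1 member had an unadjusted p below 0.05 for HF5, which had 0 with any other week left out. The causes were not tested. Tlr8 and other probes near background have only an upper bound on most arrays.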
